A study of Homo sapiens with 22 samples.

Results

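RNA from HEK293 cells, which descend from kidney cells of a human embryo, was compared between VPRP and p300, each a fusion of catalytically dead Cas9 (dCas9) brought to the beta-globin gene HBB by the same guide RNA (sgHBB). dCas9 binds DNA where its guide pairs and does not cut it. p300 is an acetyltransferase encoded by EP300, VPR is a chain of the activation domains VP64, p65 and Rta, and VPRP is VPR joined to p300. The pair addresses what joining VPR to p300 adds, and its groups also differ in EP300 reads, given below. The columns of the count table labelled VPRP_sgHBB and p300_sgHBB were taken, 4 of the 12 RNA libraries, and every gene in the table entered. Of 48162 gene IDs, 16694 passed the filter on low counts and were tested.

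VPRP sgHBB and p300 sgHBB had 2 libraries each, which the series calls biological replicates. Both groups carried a dox-inducible fusion and the HBB guide, and were sorted for cells positive for both GFP and BFP. All 6 RNA groups, WT included, had received dox over 48 hours. Levels are also given for VPR sgHBB, p300 D1399Y sgHBB (a p300 whose catalytic activity is impaired by 1 amino acid change), VPRP non-target (VPRP with a guide not directed at HBB) and WT, which held a guide and no fusion and was sorted on BFP alone. Which guide WT held is not stated, and whether a line was 1 clone or a pool is not given in the sources used here. The label of the cell line was checked against 9 markers of HEK293 cells: each reached 1 CPM (the usual counts-per-million scale, set by each library's total) or more, and their summed level was 370.8 to 372.3 CPM with VPRP and 405.6 to 409.2 CPM with p300.

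Total counts ran from 14894558 to 17479523 per library. A gene is called here when its p from the quasi-likelihood test of edgeR, adjusted by the method of Benjamini and Hochberg over all genes tested, was under 0.05, and a log2 fold change is positive where VPRP was higher. On this rule 4660 genes, 27.9% of those tested, were called between VPRP and p300. The 6 groups fall apart on MAGEA10, a cancer-testis antigen. It was at 0.261 and 0.166 CPM with VPRP sgHBB, had no read with p300 sgHBB and was at 0 and 0.138 CPM with p300 D1399Y, whereas it was at 32.1 and 32.0 CPM with VPRP non-target, 24.9 and 27 CPM with VPR and 9.34 and 9.57 CPM in WT. VPRP sgHBB and p300 sgHBB lie on the same side of that division, and VPRP non-target, VPR and WT on the other; its part in values set against VPRP non-target was not tested.

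p300 and its relative CBP acetylate histones at enhancers and promoters, including lysine 27 of histone H3, a mark of active regulatory DNA. The VPR domains act by another route: they recruit Mediator, general transcription factors and acetyltransferases of the cell. HBB itself encodes the beta chain of adult haemoglobin, is normally read in red cell precursors, and is silent in kidney cells. The gene stands in a cluster with the epsilon, gamma and delta globin genes, which share a distal enhancer region in erythroid cells.

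HBB (ENSG00000244734) was the gene with the most added reads. It stood at 1732 and 1379 CPM with VPRP, against 189 and 185 CPM with p300. The groups were far apart, although the 2 VPRP libraries differed from each other by more than the p300 level itself. The log2 fold change was 3.06 (SE 0.11, adjusted p = 1.68e-20, edgeR), and it lay between 2.88 and 3.21 when any 1 of the 12 libraries was left out. Fewer cells with HBB RNA and less HBB RNA per cell cannot be told apart in these bulk samples.

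The rise was not matched in the rest of the globin cluster. HBE1, the embryonic epsilon chain, was at 2.61 and 2.38 CPM with VPRP and 2.88 and 2.24 CPM with p300, so the groups overlapped (log2 -0.04, adjusted p = 0.957, edgeR; the sign turned without some libraries). HBG2, a fetal gamma chain, was at 0.652 and 0.608 CPM with VPRP and at 0.612 and 0 CPM with p300 (log2 1.04, adjusted p = 0.363). It was called when p300 replicate 1 was left out; the other p300 library held no read. HBD, the delta chain next to HBB, had 3 counts with VPRP and 1 with p300 over both libraries, and HBG1 did not pass the filter either. Of the 20 protein-coding genes nearest to HBB, 10 on each side, 18 were in the table and 2 were tested, HBE1 and HBG2, with neither called. The others included olfactory receptor genes, and the highest value among them in these 4 libraries was 0.673 CPM, of OR51B4 in a p300 library.

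On the alpha-globin side, HBA2 had a count ratio of 11.5 (exact 95% interval 2.83 to 100.3, from 23 and 2 counts). Its call (adjusted p = 0.0115) was lost without VPRP replicate 1 or either p300 library, and HBA1 is a near-identical copy, so reads can be split between them. HBQ1, theta globin, was at 10.9 and 12.5 CPM with VPRP and 13.7 and 16 CPM with p300 (log2 -0.34, adjusted p = 0.0698). The 5 erythroid markers, which define red cells, summed to 0.608 and 0.913 CPM with VPRP and 0.412 and 0.612 CPM with p300. None of these markers reached 1 CPM. Over all genes tested 14.3% were called higher and 13.7% lower. Of 10 tested erythroid regulators and markers, 2 rose and 3 fell, with none higher without VPRP replicate 2 or p300 replicate 1. BCL11A, a repressor of fetal globin, was at 7.18 and 6.85 CPM with VPRP and 13.8 and 14.7 CPM with p300 (log2 -1.03, adjusted p = 9.72e-07), and MYB, a regulator of blood progenitors, fell by 1.01 on the log2 scale.

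**Figure D1:**
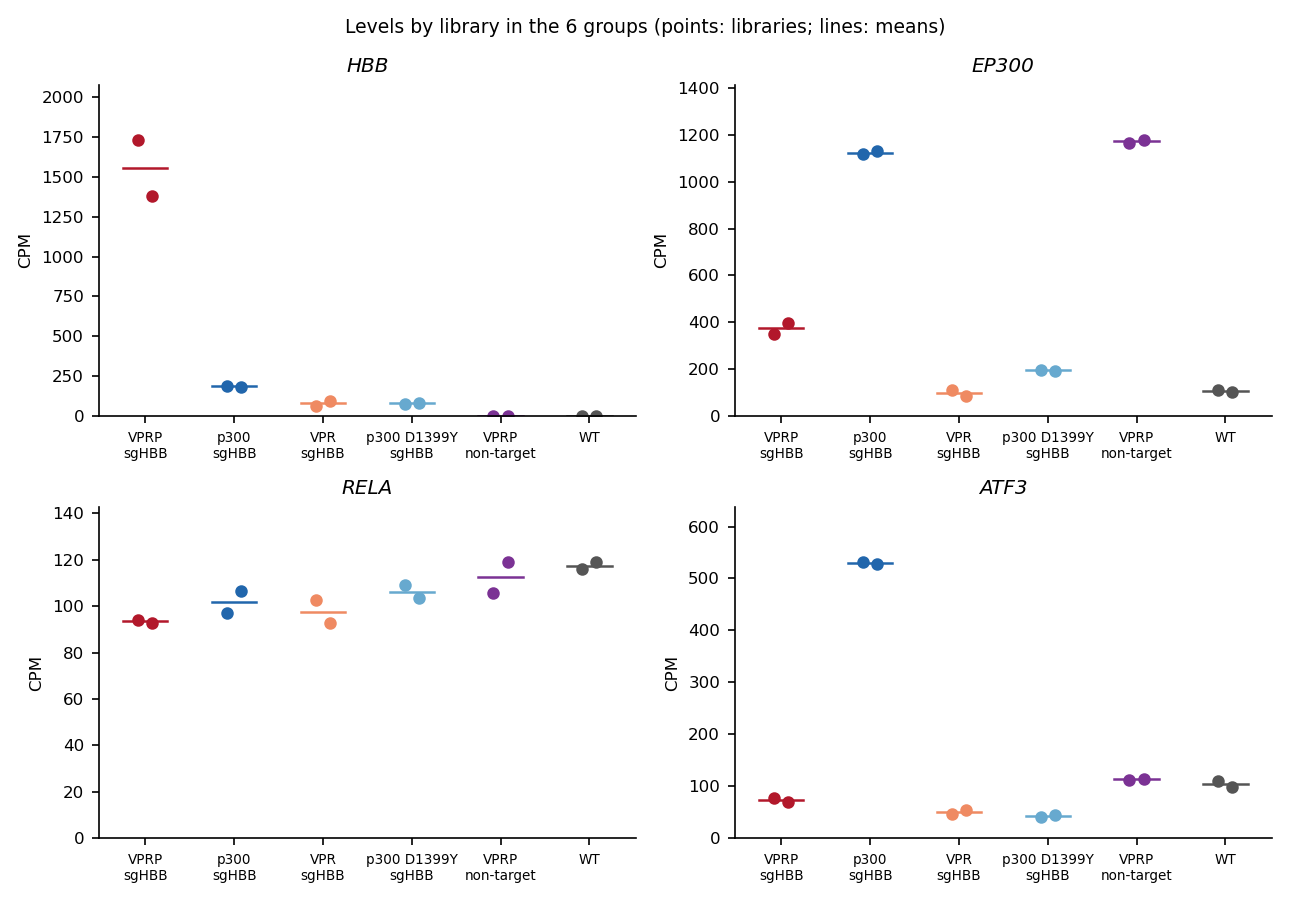
CPM of HBB, EP300, RELA and ATF3 on linear axes from 0, with a point for each library and a line for the mean of the 2 libraries in each of 6 groups. HBB is highest with VPRP sgHBB (1732 and 1379 CPM), EP300 is highest with p300 sgHBB (1116 and 1132 CPM) and VPRP non-target (1165 and 1179 CPM), and ATF3 is at 532 and 527 CPM with p300 and at 114 CPM or less in each other group.

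Genes whose reads can come from the fusion were examined next. EP300 was at 351 and 398 CPM with VPRP, against 1116 and 1132 CPM with p300 (log2 -1.58, SE 0.082, adjusted p = 1.37e-16, edgeR). In excess of the WT mean, the VPRP libraries held 268 CPM of EP300 and the p300 libraries 1018 CPM, so VPRP had 26.3% of the p300 excess. The counts do not separate reads of the fusion from reads of the cells' own gene. RELA, the gene of p65, which lends its activation domain to VPR, was at 94.2 and 92.6 CPM with VPRP and 97.0 and 106 CPM with p300 (log2 -0.12, adjusted p = 0.25). EP300 reads move with every difference given here, and the part of the amount of fusion in them was not tested.

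Of the 4660 genes called, 2380 were higher with VPRP (14.3%) and 2280 were lower (13.7%). The 2 directions differed in size. At least 2-fold changes numbered 631 higher (3.78% of genes tested) against 140 lower (0.839%), and at least 4-fold changes numbered 214 against 27. The median size of a called change was 0.57 on the log2 scale for higher genes and 0.39 for lower genes. Without p300 replicate 1 the total was 3089 genes, of which 2959 were among those called with all libraries and in the same direction.

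**Figure D2:**
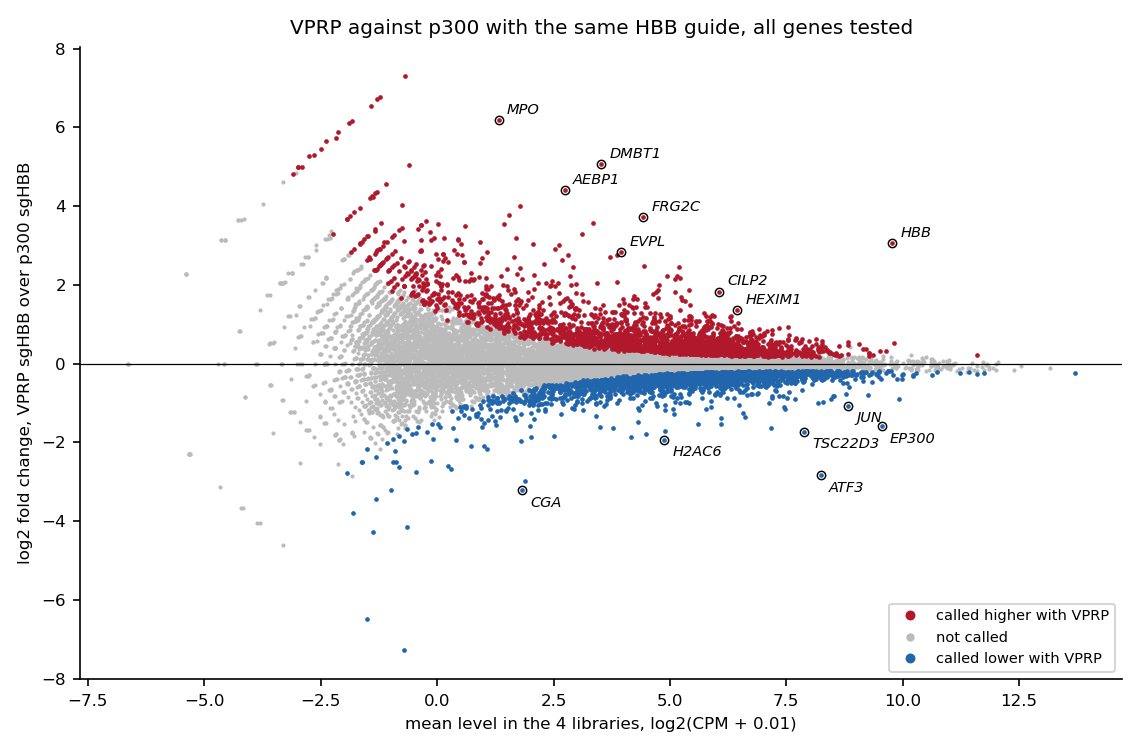
Each point is 1 of the 16694 genes tested, with its mean level in the 4 libraries, log2(CPM + 0.01), on the horizontal axis and the log2 fold change of VPRP sgHBB over p300 sgHBB on the vertical axis. Red points were called higher (2380), blue points lower (2280) and grey points were not called; large increases are more frequent than large decreases.

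The largest increases were in genes that p300 with this guide left low. DMBT1, a mucosal glycoprotein, was at 22.6 and 22.2 CPM with VPRP and 0.551 and 0.766 CPM with p300. MYO1A, a brush-border myosin, was at 19.9 and 17.6 CPM with VPRP and 1.29 and 1.83 CPM with p300 (log2 3.58, SE 0.26, adjusted p = 7.28e-13). LINC01612, a long non-coding RNA, was at 5.94 and 6.91 CPM with VPRP and 0.551 and 0.236 CPM with p300 (log2 4.01, adjusted p = 3.57e-08). In each of these 3 genes the 2 VPRP libraries lay close to each other. Lying above both p300 libraries was a condition of their choice.

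These 3 genes were also low with VPRP and the non-targeting guide. DMBT1 stood there at 0.607 and 0.222 CPM, MYO1A at 0.425 and 0.609 CPM and LINC01612 at 0 and 0.111 CPM. EVPL, envoplakin of the cornified envelope, shared that pattern, with 24.5 and 29.5 CPM with VPRP sgHBB, 4.16 and 3.42 CPM with p300 (log2 2.83, adjusted p = 1.01e-14) and 0.425 and 0.887 CPM with VPRP non-target. EVPL was about as high with p300 D1399Y (27.3 and 25.8 CPM) as with VPRP sgHBB, while DMBT1 reached 4.45 and 3.11 CPM there. AEBP1, a protein of the extracellular matrix and a transcriptional repressor, was at 12.3 and 13.2 CPM with VPRP sgHBB, 0.367 and 0.824 CPM with p300, and 4.13 and 2.77 CPM with VPRP non-target.

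Several others among the 14 largest increases were higher still in VPRP non-target. EP300 was at 1165 and 1179 CPM there, against 351 and 398 CPM with VPRP sgHBB, and its part in these values was not tested. RASD1, a small GTPase induced by glucocorticoids, was at 16.6 and 14.9 CPM with VPRP sgHBB and 1.35 and 1.88 CPM with p300 (log2 3.28, SE 0.21, adjusted p = 2.35e-14), and at 28.2 and 28.1 CPM with VPRP non-target. PCDH8, a protocadherin, was at 9.33 and 10.9 CPM with VPRP sgHBB, 1.53 and 1.18 CPM with p300 and 22.5 and 21.3 CPM with VPRP non-target. The histone gene H4C3 was at 6.59 and 5.08 CPM with VPRP sgHBB, 0.796 and 0.471 CPM with p300 and 16.9 and 15.1 CPM with VPRP non-target. GOLGA6A, a member of a family of near-identical golgin copies, was at 4.57 and 6.30 CPM with VPRP sgHBB against 0.306 and 0.471 CPM with p300. With VPRP non-target it was at 9.60 and 8.14 CPM. THEGL (log2 2.83) was at 3.91 and 3.48 CPM with VPRP sgHBB and 5.41 and 3.82 CPM with VPRP non-target, so these groups overlapped. HYAL1, a hyaluronidase (log2 3.03), was at 7.05 and 7.79 CPM with VPRP sgHBB and lower, at 4.31 and 5.37 CPM, with VPRP non-target.

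**Figure D3:**
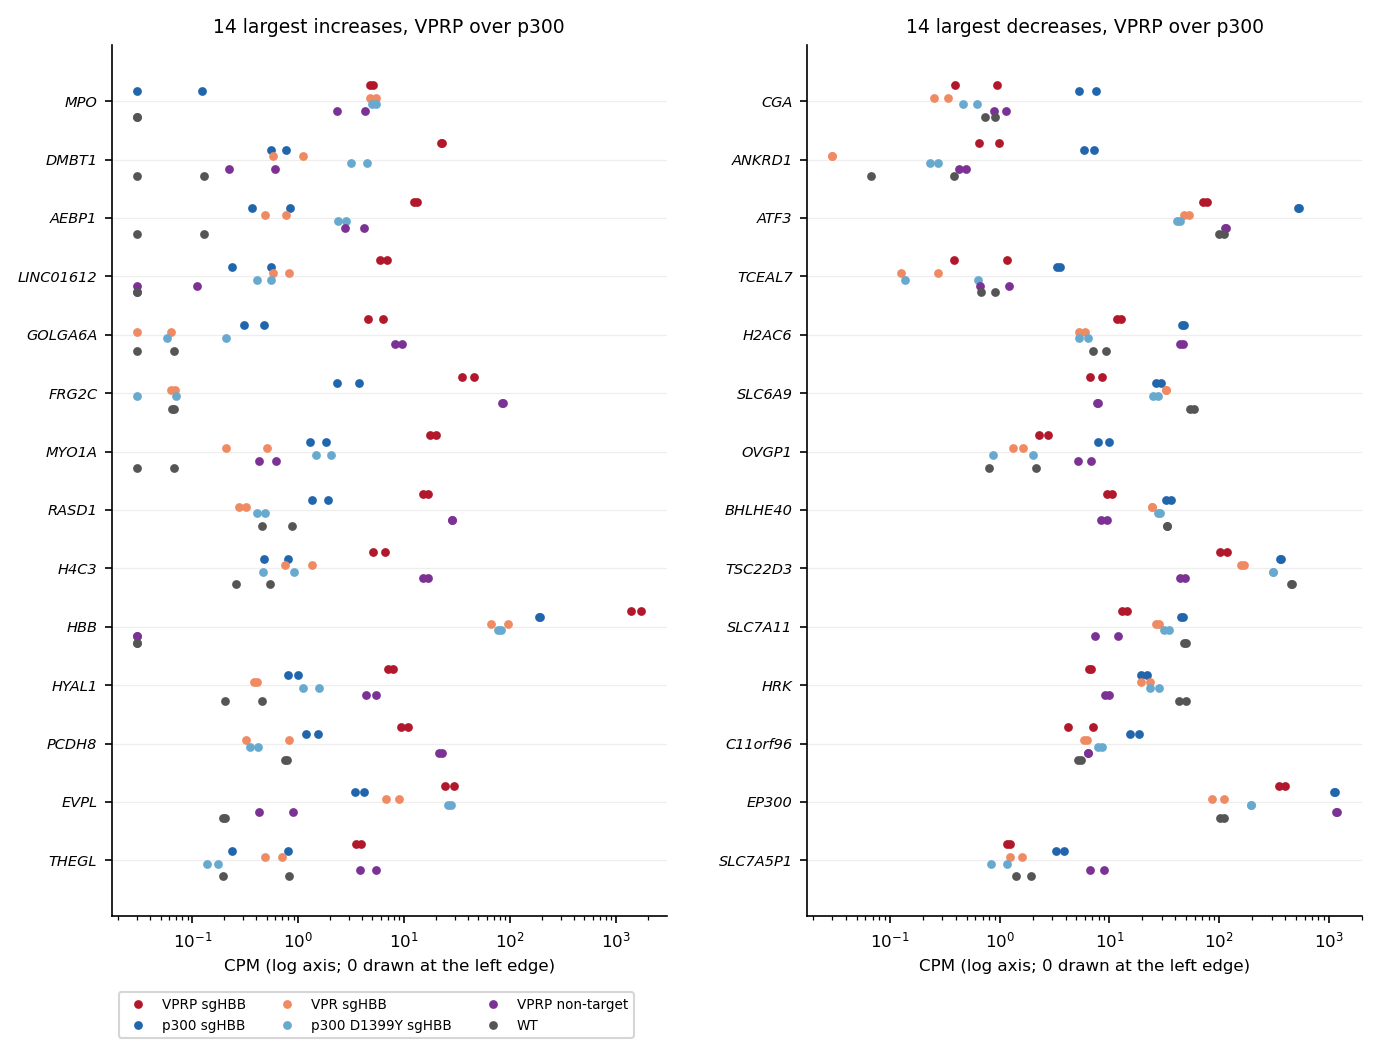
CPM on a log axis for the 14 largest increases (left) and the 14 largest decreases (right) of VPRP sgHBB over p300 sgHBB, with a point for each library of the 6 groups and 0 drawn at the left edge. On the left, DMBT1, MYO1A, LINC01612, EVPL and HBB have VPRP non-target far below VPRP sgHBB, and RASD1, PCDH8, H4C3, GOLGA6A and FRG2C have it above; on the right, ATF3, CGA and ANKRD1 are raised with p300 sgHBB and low in each other group.

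Genes with many reads give the most precise values among the increases. HEXIM1, an inhibitor of the elongation kinase P-TEFb, was at 127 and 125 CPM with VPRP and 50.6 and 48.0 CPM with p300 (log2 1.35, SE 0.084, adjusted p = 1.25e-14). CILP2, a cartilage matrix protein, was at 113 and 93.4 CPM with VPRP and 27.5 and 30.5 CPM with p300 (log2 1.83). ZNF385A rose by 1.09 on the log2 scale, ACADSB, a mitochondrial acyl-CoA dehydrogenase, by 1.21, NPTX2, a neuronal pentraxin, by 1.19, and PLXNA3, a semaphorin receptor, by 1.01. The rule that chose these genes required the lower VPRP library to be above the higher p300 library.

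Several of the large decreases came from genes that were raised with p300 sgHBB alone among the 6 groups. ATF3, a stress-induced factor of the ATF/CREB family, was at 76.8 and 70.8 CPM with VPRP, against 532 and 527 CPM with p300 (log2 -2.84, SE 0.078, adjusted p = 1.24e-24). No other group passed 114 CPM. CGA, the alpha chain of the pituitary glycoprotein hormones, was at 0.391 and 0.939 CPM with VPRP and 7.59 and 5.24 CPM with p300 (log2 -3.22, adjusted p = 1.34e-07). ANKRD1, a muscle ankyrin repeat protein and a target of YAP, was at 0.652 and 0.994 CPM with VPRP and 5.87 and 7.24 CPM with p300 (log2 -2.97). Of the 140 genes at least 2-fold lower, p300 sgHBB was the highest of the 6 groups in 61 (43.6%), against 10.1% of all genes tested; that contrast chose these genes, so the share is a description.

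Others among the decreases were high in WT as well as with p300. TSC22D3, a leucine zipper protein induced by glucocorticoids, was at 117 and 102 CPM with VPRP and 356 and 370 CPM with p300 (log2 -1.73, adjusted p = 1.09e-18), with 460 and 448 CPM in WT. BHLHE40, a repressor of the circadian clock, was at 9.52 and 10.6 CPM with VPRP, 32.9 and 36.4 CPM with p300 and 33.5 and 33.3 CPM in WT. HRK, a BH3-only activator of cell death, was at 6.46 and 6.79 CPM with VPRP, 19.3 and 21.8 CPM with p300 and 50.3 and 42.7 CPM in WT. The histone gene H2AC6 differed from these: it was at 12.8 and 11.7 CPM with VPRP and 47.7 and 45.6 CPM with p300, with 44.0 and 46.7 CPM in VPRP non-target and 7.06 and 9.38 CPM in WT. OVGP1 (2.74 and 2.27 CPM against 7.83 and 9.89 CPM), TCEAL7, C11orf96 and the pseudogene SLC7A5P1 were lower by 1.57 to 2.16 on the log2 scale.

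Abundant regulators were among the genes lowered 2-fold or more. MYC, the growth-promoting transcription factor, was at 114 and 109 CPM with VPRP and 241 and 248 CPM with p300 (log2 -1.14, SE 0.070, adjusted p = 1.01e-14). JUN, a subunit of the AP-1 factor, was at 298 and 286 CPM with VPRP and 594 and 632 CPM with p300 (log2 -1.07). HEY1, a repressor downstream of Notch, was at 113 and 108 CPM with VPRP and 241 and 236 CPM with p300 (log2 -1.11), and SOX4, a developmental transcription factor, at 89.9 and 96.1 CPM with VPRP and 188 and 186 CPM with p300. All 4 were higher in WT than with VPRP, by the values of both libraries.

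The integrated stress response had the largest share of members called in 1 direction among the lists with at least 20 tested. In this response, phosphorylation of the initiation factor eIF2 slows translation in general and raises that of ATF4, which then activates genes of amino acid synthesis, amino acid transport and stress signalling. Of 21 tested members, 17 were lower with VPRP than with p300 and none was higher, where 13.7% and 14.3% of all genes tested were. The median was -0.85 on the log2 scale, against a median of -0.00 over all genes tested. With RLE scaling, a stricter filter, or without VPRP replicate 2 or either VPR library 1 member was called higher.

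ATF4 itself was at 694 and 660 CPM with VPRP, against 1284 and 1255 CPM with p300 (log2 -0.91, SE 0.072, adjusted p = 6.56e-12). The glycine transporter SLC6A9 was at 6.65 and 8.62 CPM with VPRP and 26.8 and 29.6 CPM with p300. SLC7A11, the cystine-glutamate exchanger, was at 13.1 and 14.5 CPM with VPRP and 46.9 and 44.5 CPM with p300 (log2 -1.72). Of the other amino acid transport genes listed, SLC3A2, the partner chain of SLC7A11 and SLC7A5, fell by 0.50 on the log2 scale, and SLC7A5, a leucine transporter, was at 289 and 282 CPM with VPRP and 298 and 339 CPM with p300 and was not called (adjusted p = 0.114).

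Secreted and signalling members were lower too. STC2, a secreted glycoprotein, was at 32.2 and 38.2 CPM with VPRP and 101 and 104 CPM with p300 (log2 -1.54, adjusted p = 4.1e-16), DDIT4, an inhibitor of the mTORC1 kinase, at 28.4 and 21.5 CPM with VPRP and 69.9 and 74.2 CPM with p300, and CHAC1, a glutathione-degrading enzyme, at 11.0 and 10.0 CPM with VPRP and 28.0 and 30.6 CPM with p300 (log2 -1.48). TRIB3, a pseudokinase, fell by 0.85. DDIT3, the factor CHOP, was at 5.48 and 5.36 CPM with VPRP and 10.5 and 10.8 CPM with p300 (log2 -0.97).

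Among the enzymes of amino acid synthesis, asparagine synthetase, ASNS, was at 220 and 201 CPM with VPRP and 414 and 410 CPM with p300 (log2 -0.97, SE 0.068, adjusted p = 3.19e-13), and PSAT1, of serine synthesis, at 252 and 241 CPM with VPRP and 462 and 460 CPM with p300 (log2 -0.91). PHGDH and SHMT2, further enzymes of serine and glycine metabolism, were called with smaller changes (log2 -0.28 and -0.27), and both calls were lost without VPRP replicate 2, that of SHMT2 also without p300 replicate 2. PPP1R15A, which reverses eIF2 phosphorylation, was at 51.5 and 51.7 CPM with VPRP and 50.4 and 48.8 CPM with p300 (log2 0.06, adjusted p = 0.686). ATF5 (log2 0.39, adjusted p = 0.0515) and VLDLR were the other tested members without a call.

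ATF4 and its C/EBP partners bind composite sites whose core can be written TGATGNAA, so the stretches before the start of 3 of these genes are shown. The motif was searched on both strands in the 250 bases before each start listed by RefSeq (GRCh38.p14), and its match is in capitals. ATF3 is set beside the list because ATF4 is known to act on it and it fell furthest among the genes with many reads.
CHAC1: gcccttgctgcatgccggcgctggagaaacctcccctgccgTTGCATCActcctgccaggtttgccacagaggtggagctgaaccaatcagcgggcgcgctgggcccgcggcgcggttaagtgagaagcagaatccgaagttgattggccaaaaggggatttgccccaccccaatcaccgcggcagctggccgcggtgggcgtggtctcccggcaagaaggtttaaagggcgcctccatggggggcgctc
ASNS: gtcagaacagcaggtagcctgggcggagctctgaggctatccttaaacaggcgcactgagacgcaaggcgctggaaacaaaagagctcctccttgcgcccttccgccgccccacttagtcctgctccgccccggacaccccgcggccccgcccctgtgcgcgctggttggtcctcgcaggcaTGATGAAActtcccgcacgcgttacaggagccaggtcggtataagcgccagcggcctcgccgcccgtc
ATF3: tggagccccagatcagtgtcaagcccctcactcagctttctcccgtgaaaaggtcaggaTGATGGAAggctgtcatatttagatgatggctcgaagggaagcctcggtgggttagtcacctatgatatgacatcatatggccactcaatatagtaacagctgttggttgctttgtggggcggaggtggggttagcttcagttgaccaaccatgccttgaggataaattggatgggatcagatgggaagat
The CHAC1 stretch is chr15:40953221-40953470 (plus strand) with the match on the opposite strand from position -209 to -202. The ASNS stretch is chr7:97872409-97872658 (minus strand), with the match from -68 to -61. The ATF3 stretch is chr1:212565157-212565406 (plus strand), with the match from -191 to -184. ASNS and ATF3 each had 2 starts listed, and a start with a match was taken. For these 2 genes a match in the stretch shown was thus a condition of its choice. Of 35116 such windows 3.14% held the motif. Among genes, it stood before 4 of the 19 list members with a window (21.1%), ASNS, CHAC1, CEBPG and FGF21, before 55 of 1818 genes called lower (3.03%) and before 296 of 12004 genes tested (2.47%). A match of letters is a description of the sequence and not a binding site, and a window without it says nothing of ATF4 elsewhere.

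The unfolded protein response, which raises chaperones of the endoplasmic reticulum, went the other way. Of 13 tested members 9 were higher with VPRP and 2 were lower (median log2 0.40), where 14.3% and 13.7% of all genes tested were. MANF, a secreted protein of this compartment, was at 268 and 240 CPM with VPRP and 166 and 163 CPM with p300 (log2 0.63, SE 0.072, adjusted p = 2.78e-08). Calreticulin, CALR, was at 1102 and 1023 CPM with VPRP and 724 and 745 CPM with p300 (log2 0.53), HSPA5, the main chaperone BiP, at 913 and 854 CPM with VPRP and 694 and 722 CPM with p300 (log2 0.32), and CRELD2 and SDF2L1 rose by 0.77 and 0.69. The 2 that fell were HERPUD1 (log2 -0.48), of protein degradation, and XBP1 (log2 -0.35), a transcription factor of the response. Of 11 heat shock genes 3 were called, all higher (median log2 of the list 0.09), a share near the 27.9% called over all genes tested. Among the 3 was BAG3, a co-chaperone, at 82.7 and 79.6 CPM with VPRP and 50.6 and 51.8 CPM with p300 (log2 0.66).

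Targets of p53 were mostly higher, where 14.3% of all genes tested were called higher and 13.7% lower. Of 21 tested, 14 rose and 2 fell (median log2 0.39); the 2 that fell, MDM2 and CCNG1, lost their calls without VPRP replicate 1 or p300 replicate 1. CDKN1A, the cell cycle inhibitor p21, was at 246 and 238 CPM with VPRP, against 122 and 134 CPM with p300 (log2 0.92, SE 0.071, adjusted p = 3.1e-12). TP53INP1, which promotes p53 activity, was at 66.3 and 75.6 CPM with VPRP and 37.7 and 35.2 CPM with p300 (log2 0.96), and FDXR, a mitochondrial reductase, at 185 and 165 CPM with VPRP and 89.5 and 107 CPM with p300 (log2 0.83). BTG2, an antiproliferative protein, rose by 0.54, and TNFRSF10B, a death receptor, by 0.49. BBC3, encoding PUMA, was at 30.7 and 26.9 CPM with VPRP and 32.7 and 29.8 CPM with p300 (adjusted p = 0.421), and FAS was not called either (adjusted p = 0.927).

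Genes of cell division were called lower more often than genes tested as a whole, of which 13.7% were called lower and 14.3% higher. Of 30 tested G2/M genes 18 fell and none rose (median log2 -0.25), a count of 12 without p300 replicate 1. Without VPRP replicate 1 a member was called higher. CCNA2, cyclin A, was at 108 and 104 CPM with VPRP and 159 and 156 CPM with p300 (log2 -0.57, SE 0.071, adjusted p = 1.54e-07). HMMR, a spindle-associated protein, was at 36.2 and 40.4 CPM with VPRP and 58.1 and 51.9 CPM with p300 (log2 -0.52), UBE2C, of the anaphase-promoting machinery, fell by 0.51, and TOP2A, topoisomerase II alpha, by 0.41. CDK1 (147 and 131 CPM with VPRP, 164 and 148 CPM with p300) and MKI67 were not called. Among 27 S phase genes 12 fell and 1 rose (median log2 -0.18); CDT1, of replication licensing, was at 167 and 153 CPM with VPRP and 223 and 231 CPM with p300 (log2 -0.50).

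**Figure D4:**
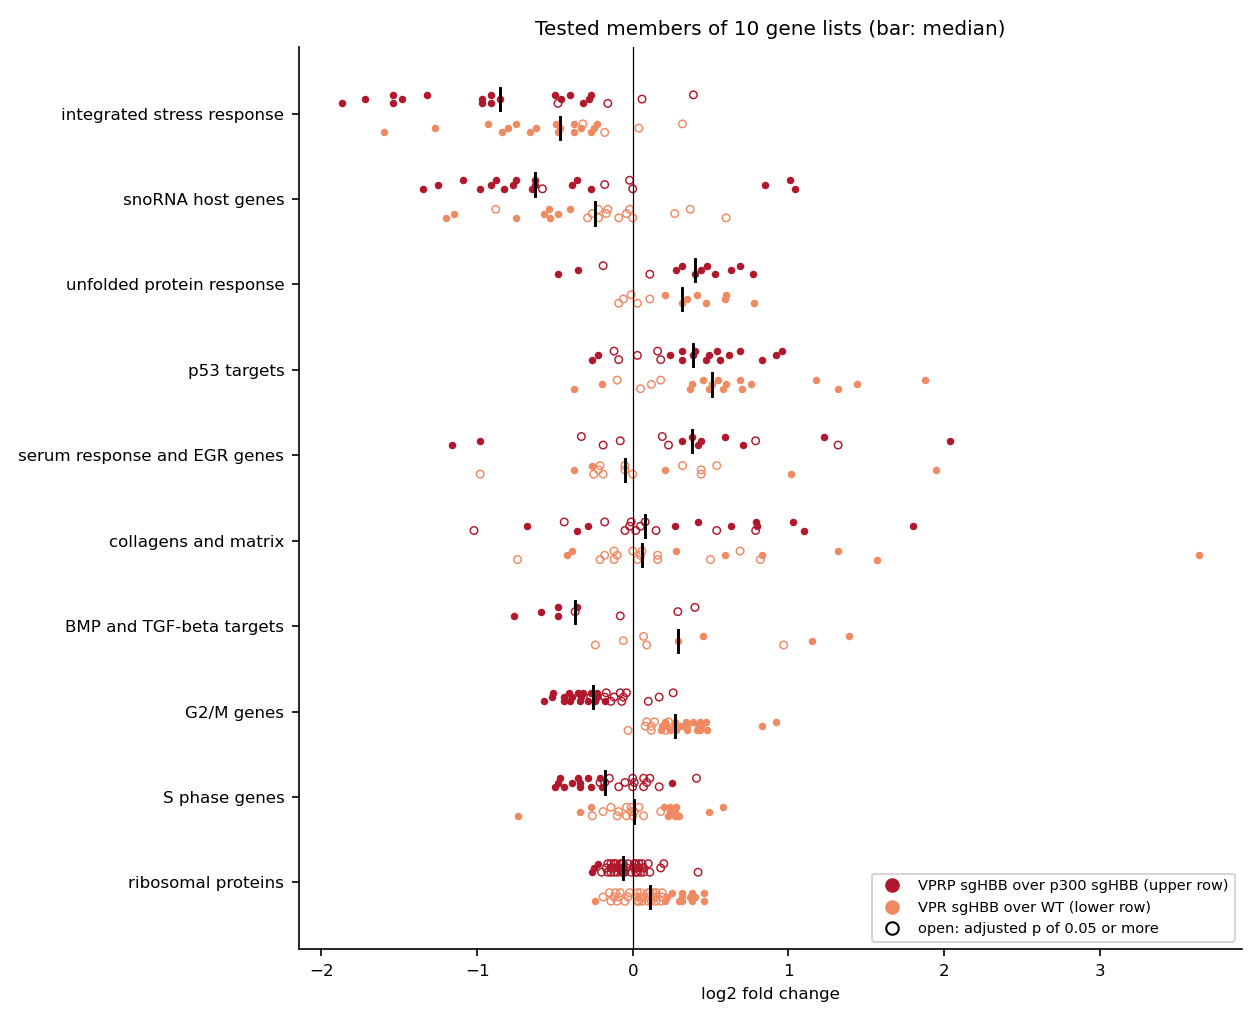
Log2 fold changes of the tested members of 10 gene lists, for VPRP sgHBB over p300 sgHBB (upper row of each list) and VPR sgHBB over WT (lower row); filled points passed an adjusted p of 0.05 and bars are medians. The integrated stress response lies below 0 in both rows (medians -0.85 and -0.47), whereas the G2/M genes lie below 0 in the upper row (-0.25) and above 0 in the lower (0.27).

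Immediate response genes were called in both directions, where 14.3% of all genes tested were called higher and 13.7% lower. Of 17 tested genes of the serum response and EGR list 8 rose and 2 fell (median log2 0.38), with 5 higher without VPRP replicate 2 or without p300 replicate 1. CCN2, a matricellular growth factor, was at 16.8 and 17.8 CPM with VPRP and 4.53 and 3.89 CPM with p300 (log2 2.04, SE 0.18, adjusted p = 5.56e-11), and ZFP36, an RNA-decay factor, rose by 1.23. KLF6 was at 20.6 and 20.6 CPM with VPRP and 45.1 and 47.3 CPM with p300 (log2 -1.16), and KLF10, induced by TGF-beta, at 28.5 and 27.2 CPM with VPRP and 54.3 and 55.8 CPM with p300 (log2 -0.98). In the AP-1 and ATF family 2 of 12 rose and 3 fell: beside ATF3 and JUN, JUND fell by 0.67 and JUNB rose by 0.73, while FOS was at 13.6 and 17 CPM with VPRP and 19.3 and 17.3 CPM with p300 (adjusted p = 0.187). DUSP1, a phosphatase that ends MAP kinase signalling, was at 28.6 and 27.5 CPM with VPRP and 57.4 and 55.5 CPM with p300 (log2 -1.01), and DUSP5 rose by 0.79; of 13 genes of MAP kinase feedback 1 rose and 4 fell, with 1 or 2 lower without VPRP replicate 1, VPRP replicate 2 or p300 replicate 2.

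Genes normally read in the cleavage-stage embryo, many of them targets of the factor DUX4, formed another group. Of 18 members 8 passed the filter, all 8 were called higher, and the other 10 had at most a few reads. A gene of this kind passes the filter through the groups where it is read, so the count describes these 8 and no more, and it was 5 without p300 replicate 1. RFPL4A was at 37.6 and 36.5 CPM with VPRP and 7.65 and 5.71 CPM with p300 (log2 2.47, SE 0.13, adjusted p = 6.94e-16). It was at 81.6 and 80.8 CPM with VPRP non-target and at 0.116 CPM or less with VPR, with p300 D1399Y and in WT. DUXA had 16 counts with VPRP and 1 with p300, and ZSCAN4, LEUTX and TPRX1, further genes of that stage, had 3 counts or fewer in either group.

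FRG2, FRG2B and FRG2C, copies from ends of chromosomes and other duplicated regions, made up 3 of these 8. FRG2C was at 45.0 and 34.7 CPM with VPRP, against 3.73 and 2.30 CPM with p300 (log2 3.72, SE 0.17, adjusted p = 1.81e-18), FRG2B at 26.5 and 24.0 CPM with VPRP and 4.41 and 3.12 CPM with p300 (log2 2.75), and FRG2 at 12.4 and 12.0 CPM with VPRP and 1.77 and 1.83 CPM with p300 (log2 2.76). The last 150 bases before the starts of the 3 genes (RefSeq, GRCh38.p14) show how alike the copies are at their starts.
FRG2: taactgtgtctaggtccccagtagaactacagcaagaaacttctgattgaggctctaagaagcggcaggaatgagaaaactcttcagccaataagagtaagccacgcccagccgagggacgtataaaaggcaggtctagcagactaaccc
FRG2B: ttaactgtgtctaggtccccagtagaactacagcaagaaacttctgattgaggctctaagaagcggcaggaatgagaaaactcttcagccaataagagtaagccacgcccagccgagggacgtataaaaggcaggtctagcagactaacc
FRG2C: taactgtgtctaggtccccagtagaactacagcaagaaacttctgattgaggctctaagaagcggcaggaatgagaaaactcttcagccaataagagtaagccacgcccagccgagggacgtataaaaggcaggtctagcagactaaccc
These stretches are chr4:190027257-190027406 (minus strand), chr10:133626796-133626945 (minus strand) and chr3:75664178-75664327 (plus strand). With a shift of 1 base, FRG2 and FRG2B were identical over the 249 bases compared before the start, and FRG2 and FRG2C over 242 of 250 (96.8%). The 3 copies were each higher with VPRP sgHBB than with p300, and their values are uncertain where reads fit more than 1 copy. The transcripts themselves were not compared.

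Genes of neutrophil granules were read at low levels with VPRP and almost not with p300. MPO, myeloperoxidase, was at 4.76 and 5.08 CPM with VPRP and at 0.122 and 0 CPM with p300. ELANE, neutrophil elastase, was at 1.04 and 1.38 CPM with VPRP and had no read with p300, which allows 3 counts, so it was at least 13.6-fold higher (adjusted p = 2.33e-05, edgeR). CTSG, cathepsin G, was at least 5.98-fold higher (adjusted p = 0.00332), a call lost without VPRP replicate 2 (adjusted p = 0.0556). PRTN3, proteinase 3, was at 1.96 and 1.77 CPM with VPRP and 0.428 and 0.177 CPM with p300 (log2 2.60). Floors and count intervals cover counting error only.

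PRTN3 and ELANE are neighbours on chromosome 19 of AZU1, which had 13 counts with VPRP and 2 with p300 and was not tested. Of 8 members of this list 6 passed the filter and 4 were called higher, where 14.3% of all genes tested were. Such genes pass the filter through the groups where they are read, so the count describes these members and no more. LYZ, lysozyme (adjusted p = 0.363), and CEBPA (adjusted p = 0.408), a myeloid factor, were not called, and CEBPE, the factor of granule maturation, had 5 counts with VPRP and 0 with p300. MPO was also read with VPR (5.38 and 4.79 CPM), with p300 D1399Y (4.97 and 5.39 CPM) and with VPRP non-target (4.25 and 2.33 CPM), and MPO and ELANE had no read in WT. The blood marker list, 5 genes, summed to 8.35 and 9.56 CPM with VPRP and 3.61 to 4.89 CPM with p300, with 1 member at 1 CPM or more in each group and 1 listed at 0 in p300; its part in these values was not tested.

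Several matrix and adhesion genes rose. COL1A1, type I collagen, was at 58.8 and 61.0 CPM with VPRP and 28.6 and 27.4 CPM with p300 (log2 1.10, SE 0.11, adjusted p = 6.52e-10), SPARC, a collagen-binding glycoprotein, at 10.1 and 8.89 CPM with VPRP and 2.33 and 3.12 CPM with p300 (log2 1.80), and COL6A2 at 130 and 137 CPM with VPRP and 73.8 and 79.3 CPM with p300 (log2 0.80). COL16A1 was at 17.8 and 20.4 CPM with VPRP, 9.18 and 9.60 CPM with p300 and 0.850 and 0.942 CPM with VPRP non-target. Of 23 tested genes of collagens and matrix 8 rose and 3 fell (median log2 0.08). Over all genes tested 14.3% were called higher and 13.7% lower. Fewer of the list were called higher without p300 replicate 1, and fewer lower without p300 replicate 2. The fibroblast markers, 5 genes that include COL1A1, summed to 63.5 and 66.8 CPM with VPRP and 33.0 and 33.8 CPM with p300; their part in these values was not tested.

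SNAI1, a repressor of epithelial genes, was at 26.2 and 21.2 CPM with VPRP and 5.26 and 5.95 CPM with p300 (log2 2.07, adjusted p = 1.09e-12), but VIM, vimentin, fell by 0.54 and CDH1, E-cadherin, rose by 0.49. Of 12 genes of mesenchymal transition 4 rose and 3 fell (median log2 -0.01), where 14.3% of all genes tested were called higher and 13.7% lower. Fewer of the 12 were called lower without VPRP replicate 1 or p300 replicate 1, and fewer higher without p300 replicate 2. Targets of BMP and TGF-beta were lower in 5 of 9 tested and higher in none, with 3 lower and 1 higher without VPRP replicate 2. ID2, an inhibitor of basic helix-loop-helix factors, was at 48.3 and 52.0 CPM with VPRP and 83.6 and 85.8 CPM with p300 (log2 -0.76, adjusted p = 9.94e-09).

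Neuronal genes were called in both directions. NEFH, a neurofilament, was at 9.26 and 8.18 CPM with VPRP and 2.14 and 2.24 CPM with p300 (log2 1.99), and SV2A, of synaptic vesicles, at 65.6 and 61.4 CPM with VPRP and 29.7 and 31.5 CPM with p300 (log2 1.05). SNAP25, of vesicle fusion, was at 0.261 and 0.387 CPM with VPRP and 1.90 and 2.12 CPM with p300 (log2 -2.59, adjusted p = 0.00102). Of 19 neuronal genes 5 rose and 2 fell (median log2 0.23), where 14.3% of all genes tested were called higher and 13.7% lower. In the Wnt list 4 of 19 rose and 1 fell, a share near the 27.9% called over all genes; the receptor FZD9 was at 44.8 and 42.0 CPM with VPRP and 17.3 and 19.0 CPM with p300 (log2 1.26). In the Notch pathway 4 of 14 rose and 3 fell, with 2 higher without VPRP replicate 2: the receptor NOTCH1 was at 87.3 and 91.9 CPM with VPRP and 48.9 and 51.9 CPM with p300 (log2 0.83), whereas the target HES1 fell by 1.12.

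In 3 lists of the machinery through which such fusions act, some genes were called lower and none higher. Over all genes tested 13.7% were called lower and 14.3% higher, and the share of Mediator genes was near the first. Of 10 acetyltransferase genes 4 were lower and none higher, EP300 included. KAT6B was at 16.6 and 22.0 CPM with VPRP and 31.4 and 28.6 CPM with p300 (log2 -0.63), and KAT7 at 42.3 and 42.5 CPM with VPRP and 61.1 and 67 CPM with p300 (log2 -0.60, adjusted p = 2.6e-06). Of 31 Mediator subunit genes 4 were lower, a count of 2 without VPRP replicate 2 or p300 replicate 2, and 1 was higher under some alternatives, RLE scaling among them; MED22 moved furthest of those called (log2 -0.40, adjusted p = 0.000769). Of 12 genes of bromodomain readers 3 were lower, among them BRD9 (log2 -0.43), and each call was lost without p300 replicate 2. Ribosomal protein genes were near the median of the table, with 3 of 46 lower and none higher; that count ran from 1 to 12 as libraries were left out. Replication-dependent histone genes, whose mRNAs mostly lack the poly(A) tail used to select RNA here, were called in 3 higher and 2 lower of 20 tested, with 1 higher without VPRP replicate 1 or either p300 library and 1 lower without VPRP replicate 2; 30 of the 51 listed were not matched.

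Interferon, NF-kappaB and lipid genes were called in both directions, where 27.9% of all genes tested were called. Of 15 interferon-stimulated genes 4 rose and 1 fell, with 2 higher without VPRP replicate 2 or p300 replicate 1 and none lower without any 1 of the 4 libraries; IFI6, a mitochondrial protein, was at 41.8 and 39.8 CPM with VPRP and 20.6 and 20.9 CPM with p300 (log2 0.97), and IRF7 rose by 1.69. Of 13 NF-kappaB targets, a set of interest because VPR carries the p65 domain, 3 rose and 2 fell (1 without VPRP replicate 2 or p300 replicate 2), with NFKB2 at 66.3 and 69.6 CPM with VPRP and 45.5 and 45.6 CPM with p300 (log2 0.58). Of 21 genes of cholesterol and fatty acid synthesis 5 rose and 2 fell (3 and 1 without VPRP replicate 1 or either p300 library), and INSIG1, which holds back sterol synthesis, was at 107 and 105 CPM with VPRP and 187 and 188 CPM with p300 (log2 -0.82). Hypoxia targets were split, 2 higher and 3 lower of 11, with ADM, the vasodilator adrenomedullin, at log2 0.82 and NDRG1 at log2 -0.68. Of 18 deacetylases 4 rose and 2 fell, with none higher without p300 replicate 1, of 11 genes of MHC class I presentation 1 rose, of 8 tested epidermal and mucosal genes 4 rose and 1 fell, with 2 higher without any 1 of the 4 libraries, and neither of the 2 tested metallothioneins was called.

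VPR sgHBB was set against WT to see the VPR part without p300, in libraries that share none with the pair above. The 2 groups there also differ in dCas9, which WT did not hold, in the sort gate and perhaps in the guide. Their difference is thus not of VPR alone. In that comparison 4220 genes were called, 25.3% of those tested, with 2307 higher (13.8%) and 1913 lower (11.5%). At least 2-fold changes were 404 higher (2.42%) and 112 lower (0.671%). Leaving out VPR replicate 2 gave 2746 calls, and leaving out WT replicate 1 or 2 gave 2752 or 2548. Genes called higher in both comparisons numbered 714, which is 30.0% of those higher with VPRP against p300 and 30.9% of those higher with VPR against WT. Genes called lower in both numbered 735, or 32.2% and 38.4%. Across genes, which are not independent replicates, the 2 sets of log2 fold changes had a Pearson r of 0.29 over 16694 genes and 0.36 over the 12747 with at least 1 CPM in each of the 8 libraries.

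**Figure D5:**
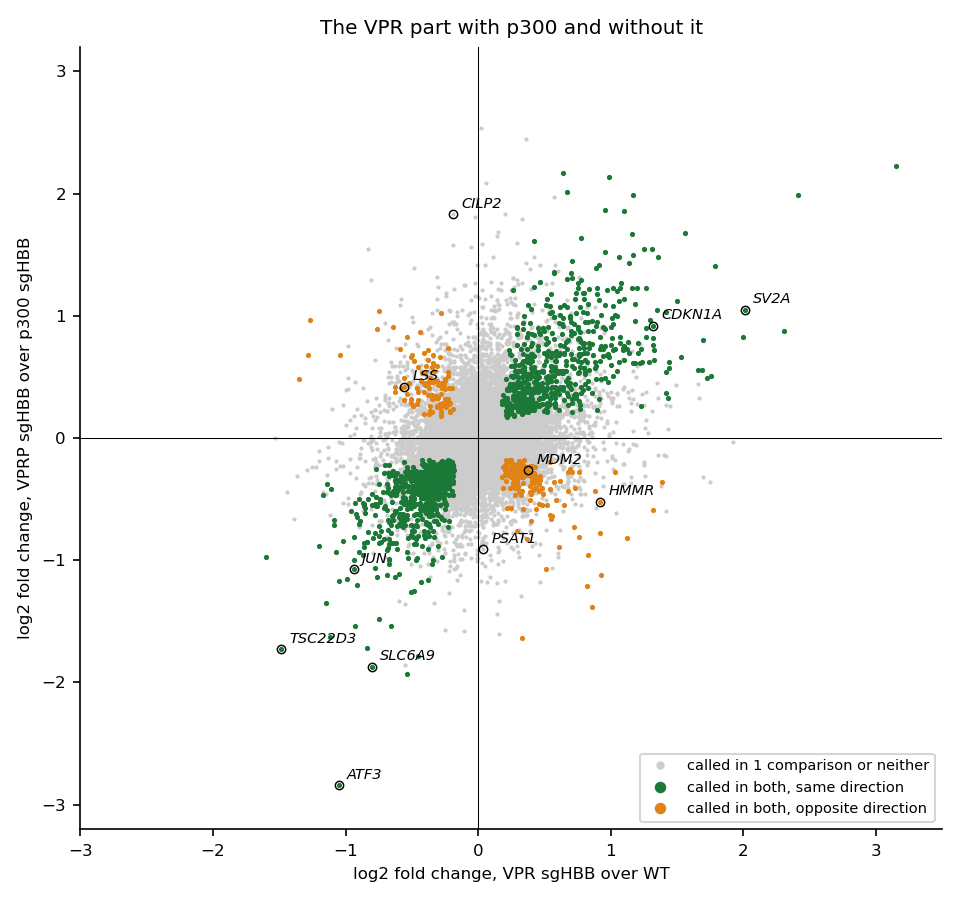
Log2 fold change of VPRP sgHBB over p300 sgHBB (vertical) against that of VPR sgHBB over WT (horizontal) for the 12747 genes with at least 1 CPM in all 8 libraries. Green points were called in both comparisons in the same direction (1344), orange points in opposite directions (260), and TSC22D3, JUN, SLC6A9 and ATF3 lie in the lower left while CDKN1A and SV2A lie in the upper right.

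The stress and p53 lists had medians of the same sign in both comparisons. With VPR against WT 13.8% of all genes tested were called higher and 11.5% lower. Of the 21 integrated stress response genes 17 were lower with VPR than in WT (median log2 -0.47), and 15 were lower in both comparisons. TRIB3 and PSAT1 were called with VPRP against p300 alone, and PPP1R15A (log2 -0.62) and SLC7A5 (log2 -0.48) with VPR against WT alone. The difference between the comparisons, tested as an interaction, was called in 9 of the 21 below 0 and 2 above 0, where 15.2% of all genes tested were called, 8.53% below 0 and 6.68% above 0. DDIT3 was at 1.08 and 1.30 CPM with VPR and 4.30 and 2.91 CPM in WT (log2 -1.60), and ASNS at 370 and 386 CPM with VPR and 462 and 452 CPM in WT (log2 -0.27). Of the 13 unfolded protein response genes 8 were higher and none lower with VPR (median log2 0.32), and of the 21 p53 targets 15 were higher and 2 lower (median log2 0.51), with 11 higher in both comparisons. MDM2 was called in opposite directions (log2 -0.26 with VPRP against p300, 0.38 with VPR against WT), and 6 of the p53 targets had an interaction below 0 and 1 above 0. CDKN1A was at 111 and 108 CPM with VPR and 44.8 and 43.0 CPM in WT (log2 1.32).

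Cell division genes did not. Of the 30 G2/M genes 22 were higher and none lower with VPR than in WT (median log2 0.27). Over all genes tested 13.8% were called higher there and 11.5% lower. In the interaction 23 of the 30 genes were called below 0 and none above 0, and 15 of the 30 were called in opposite directions in the 2 comparisons. HMMR was at 70.8 and 88.0 CPM with VPR and 41.2 and 42.6 CPM in WT, and its interaction was -1.44 on the log2 scale (adjusted p = 3.58e-09, edgeR). CCNA2 had an interaction of -0.78 (adjusted p = 1.5e-06). In all, 2539 genes had a difference between the comparisons, 1427 without p300 replicate 1 and 1619 without WT replicate 2.

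Of the 631 genes at least 2-fold higher with VPRP than with p300, 168 (26.6%) were also called higher with VPR and 4 were called lower. In VPRP non-target, 583 (92.4%) had both libraries above both WT libraries, where 42.0% of all genes tested did. The mean was higher in VPRP non-target than with VPRP sgHBB in 360 (57.1%), against 51.5% of all genes tested. VPRP sgHBB was the highest of the 6 groups in 255 (40.4%) and VPRP non-target in 353 (55.9%). Over all genes tested these shares were 15.3% and 25.7%. High values with VPRP sgHBB chose these genes, so its share is a description. Of the 140 genes at least 2-fold lower, 68 (48.6%) had both VPRP non-target libraries below both WT libraries, where 38.2% of all genes tested did. In 42 (30.0%) they were above, against 42.0% of all genes tested. The mean was higher in VPRP non-target than with VPRP sgHBB in 114 (81.4%), against 51.5% of all genes tested. Low values with VPRP sgHBB chose these genes, so that share is a description. Among all 2280 lower genes the first count was 1866 (81.8%). The means of VPR and WT did not enter the choice of these genes, but the spread of their libraries entered the shared fit. Both VPR libraries were above both WT libraries in 1220 of the 2380 higher genes (51.3%), against 31.0% of all genes tested. They were below in 1199 of the 2280 lower genes (52.6%), against 27.8% of all genes tested. WT serves both of these comparisons with VPR and with VPRP non-target, so the 2 counts share their control.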

How the data were processed

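RNA was measured in 12 libraries of 6 groups, with 2 libraries in each; 10 ChIP samples were not analysed here, 2 of them with labels that give no single group. The authors deposited a table of raw read counts per gene, made from poly(A)-selected, paired-end RNA sequencing per the labels' protocols. STAR 2.5, HTSeq 0.6.1, DESeq2 1.24.0, BWA, deepTools and the build hg19 are named in the submitters' processing notes, with no role or order; whether counting used strand is not given in the sources used here. Of 48162 IDs 33626 matched a symbol, and the others held 0.77 to 0.9% of counts.

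From the deposited counts, edgeR 4.0.16 (R 4.3.3, limma 3.58.1) was run with TMM factors, filterByExpr by group (minimum count 10, minimum total 15), a mean for each of the 6 groups and the quasi-likelihood test, adjusted by Benjamini-Hochberg over 16694 genes. A standard error is the log2 fold change divided by the square root of F. CPM used each library's total over the tested genes, multiplied by its TMM factor. Raw totals ran from 14894558 to 17479523 counts. A group with 0 counts was given a floor of 3 counts over the group, and ratios with 1 to 3 counts an exact 95% interval; both cover counting error only. The labels call the libraries biological replicates, and nothing says that they came from separate cultures, so p-values measure the spread between these libraries, which may be technical. Variance between the 2 libraries was 8.23 times the Poisson value for VPRP, 3.6 times for p300 and 13.71 times for VPR. Same-numbered libraries did not deviate together (r -0.041 to 0.066 over 15 pairs of groups), so the numbers were not taken to pair them.

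Genes named are HBB and the other globins, EP300, RELA, the 14 largest changes each way (at least 2-fold, mean log2 CPM of at least 1, groups that do not overlap), the 8 with most reads each way, and up to 5 called members of each list plus those a sentence needed; MAGEA10 was named after its values were seen, and 1 gene that the rule names is not reported here. The members and lists were chosen with earlier results of these data known. The settings changed in turn were the tool (DESeq2 1.42.0), the scaling (RLE or upper quartile), the filter, the samples in the fit, a replicate block, the threshold and each library left out. Scripts were tested on simulated data. Figures and tables used Python 3.11.15, pandas 2.3.3, numpy 2.4.6, scipy 1.17.1 and matplotlib 3.10.9.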

Additional observations from a re-analysis of the deposited data

Results flagged for a closer look

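Of 41 genes among the targets, the largest and the most-read changes, 22 differed between the comparison of VPRP sgHBB with p300 sgHBB and that of VPR sgHBB with WT, tested as an interaction over all genes (edgeR's quasi-likelihood test, adjusted p under 0.05); over the whole table the number was 2539. The values below are the log2 change of VPRP over p300 minus that of VPR over WT. HBB was called too, but it had no read in WT and its value is not given.

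Of the 22 genes, 10 were above 0. Among them, RASD1 had 4.41, PCDH8 3.34, HYAL1 2.78, THEGL 2.58 and CILP2 2.02. The first 4 had low counts, from 9 to 23 over both libraries of VPR or of WT. NPTX2 had 1.42, PLXNA3 1.08, ACADSB 0.96 and HEXIM1 0.78.

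The other 12 were below 0. EVPL had -2.42, OVGP1 -1.83, ATF3 -1.79, C11orf96 -1.76, EP300 -1.48 and H2AC6 -1.39. BHLHE40 had -1.33, SLC6A9 -1.07, SLC7A11 -0.88, SOX4 -0.54, HEY1 -0.51 and MYC -0.37. EP300 reads can come from the fusion, which differs among these groups, and the part of its amount in the other values was not tested.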

How the results depend on the processing

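HBB, EP300 and RELA kept their direction and their side of the threshold in every alternative run. The 4660 genes called between VPRP and p300 were 3033 at an adjusted p under 0.01 and 771 at 2-fold or more, and 3089 to 5227 as 1 of the 12 libraries was left out, the lowest without p300 replicate 1. The comparison of VPR with WT gave 2548 to 4367 genes, against 4220. The interaction gave 1427 to 3278, against 2539. DESeq2 called 3828, 3623 and 1991 genes in these 3 comparisons. With the replicate block the numbers were 4470, 4006 and 2286; the numbers do not pair the libraries. HBE1, at -0.04, ran from -0.21 to 0.15, with 0.03 without VPRP replicate 2 and 0.15 without p300 replicate 1. Of 244 named genes 161 kept direction and call throughout. With 2 libraries a group, leaving one out rests on the spread of the other groups. Low genes were limited by counts: the cluster genes beside HBB had too few reads to test, except HBE1 and HBG2.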

Other observations

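Host genes of small nucleolar RNAs, a group chosen after its values were seen, were mostly lower with VPRP than with p300. Of 22 tested, 15 fell and 3 rose, where 13.7% and 14.3% of all genes tested did. The median was -0.63 on the log2 scale, against -0.00 over all genes tested. SNHG1 was at 55.8 and 55.0 CPM with VPRP and 139 and 143 CPM with p300 (log2 -1.35, adjusted p = 5.4e-14, edgeR's quasi-likelihood test). SNHG32 fell by 1.25, SNHG17 by 0.98 and GAS5 by 0.91, while SNHG19 (log2 1.04), SNHG25 (log2 1.01) and SNHG9 (log2 0.85) rose. With VPR against WT 8 of the 22 were lower and none was higher (median log2 -0.24), where 11.5% and 13.8% of all genes tested were.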
